A study of Drosophila melanogaster with 15 samples.

Results

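The genes described here encode the proteins that read calcium in fly neurons and pass its signal on: calmodulin (*Cam*), the calmodulin-dependent kinases *CaMKII* and *CaMKI*, the *CaMKII* partner *CASK*, the protein kinases C *Pkc53E* and *Pkc98E*, the catalytic subunits of the phosphatase calcineurin *CanA1* and *Pp2B-14D*, and the calcium-binding protein *Cbp53E*. They were listed by name, with earlier results of these libraries already known. The list held 10 genes, of which 9 were matched through their FlyBase identifiers among 17453 counted identifiers, and *CanA-14F* was not analysed here. All 9 passed the filter on low counts in every comparison.

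Polyadenylated RNA from heads of naive 5-day-old males was counted in 15 libraries of 6 strains, each library being made from about 100 pooled heads. The control (WT, 2 libraries) was strain 58492 of the Bloomington Drosophila Stock Center, whose X chromosome carries the mutations *y1* (*yellow*), *w1118* (*white*) and *DNAlig4169* (*DNAlig4*) and, at the site ZH-2A, the transgene *M{Act5C-Cas9.P. RFP-}*, in which the *Act5C* promoter drives Cas9. The deletion strains, which carry *yellow* and *white* mutations as well, were made with CRISPR/Cas9 and lacked cystathionine β-synthase in *CBS-/-*(5) (2 libraries) and *CBS-/-*(8) (3 libraries), cystathionine γ-lyase in *CSE-/-* (3 libraries), or both enzymes in the double deletion strains *CBS-/-CSE-/-*(1) (3 libraries) and *CBS-/-CSE-/-*(2) (2 libraries). Whether they kept the Cas9 transgene and the *DNAlig4* mutation is not given in the sources used here. Both enzymes belong to the transsulfuration pathway and produce hydrogen sulfide, and the study asked how their loss affects learning and memory. The *CSE-/-* genotype was represented by 1 strain, so that the effect of the deletion and that of the strain cannot be told apart.

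Calmodulin changes shape when it binds calcium and then switches on enzymes such as *CaMKII*, *CaMKI* and calcineurin. *CaMKII* is a multi-subunit kinase that can phosphorylate itself and stay active after calcium has fallen, and it is required for courtship memory in *Drosophila*. Calcineurin removes phosphate groups in response to calcium and calmodulin, while protein kinases C answer to diacylglycerol and, in the conventional class, to calcium.

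Between 6850445 and 21144213 reads were counted per library, and the correlation of log2 CPM between replicates within a strain was 0.938 to 0.987 across genes. The reads of the deleted genes fitted the labels, since *Cbs* had 3 to 55 counts in the libraries of strains without it and 1217 to 1396 in the control, and *Cth*, the fly gene of CSE, had 10 to 25 against 233 to 262. In *CSE-/-*, which kept the gene, *Cbs* had a lower mean than in the control. Scaled by TMM factors, it was 93.96 ± 26.4 CPM (SD, n = 3) against 187.8 ± 20.1 (SD, n = 2). The difference did not pass the test used below (edgeR adjusted p = 0.388). Its part in the comparisons with *CSE-/-* was not tested. Markers of neurons, photoreceptors, glia and muscle were counted in all libraries. The libraries differed in gut RNA, as the summed level of 29 midgut genes ran from 202 to 567 CPM (counts per 1e6 counted reads) in *CBS-/-*(5), from 2439 to 15508 in *CSE-/-* and from 8277 to 46628 in the libraries of the other 4 strains. Summed levels of 6 fat body genes were 554 to 708 CPM in the *CBS-/-* strains, 789 to 1297 in *CSE-/-*, 1234 to 3158 in the double deletion strains and 2371 to 3966 in the control. The part of this RNA in the results was not tested. In RNA from whole heads, fewer cells of a type and less RNA per cell cannot be told apart.

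Levels below are CPM scaled by TMM factors. In the control, the order of the mean levels per kilobase of exon was *Cam* at 34.3 CPM per kb, *CaMKI* at 30.5, *Cbp53E* at 10.5, *CaMKII* at 7.99, *Pkc53E* at 5.45, *Pkc98E* at 4.18, *CASK* at 4.00, *Pp2B-14D* at 3.26 and *CanA1* at 0.900. Only the steps from *CaMKI* to *Cbp53E*, from *CaMKII* to *Pkc53E* and from *Pp2B-14D* to *CanA1* separated neighbours whose control libraries did not overlap. Every member was thus detected in heads, and *CanA1* was the one with few reads, at 13 to 103 counts per library.

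The deletion strains were each tested against the control to ask which of these genes had another level without the enzymes. A change is given as the log2 fold change from the edgeR quasi-likelihood test with its standard error (SE), and a gene was called changed at an adjusted p (Benjamini-Hochberg, over all genes tested) under 0.05. All members called were lower than the control. They were 2 of 9 in *CBS-/-*(5), where 7.74% of all genes tested were called lower and 1.6% higher, and 1 of 9 in *CBS-/-*(8), where 4.67% were lower and 1.76% higher. In *CBS-/-CSE-/-*(1) they were 4 of 9, beside 3.03% of all genes lower and 1.15% higher, and in *CBS-/-CSE-/-*(2) 2 of 9, beside 2.36% lower and 1.1% higher. In *CSE-/-* they were 0 of 9, where 0.565% of all genes were lower and 0.213% higher. There, 2 members had an unadjusted p under 0.05 in edgeR and DESeq2 called 0. The median log2 fold change of the 9 members was -0.28, -0.38, -1.11, -1.19 and -0.40, with the strains ordered as above, against 0.03, 0.04, 0.02, 0.00 and 0.01 over all genes. The study had itself picked out *Cam*, *CaMKII*, *CASK* and *Pkc98E* from these libraries, so that their directions here are not independent evidence. The 5 comparisons share the 2 control libraries, so a departure of these libraries would enter all of them. The share of reads not unique to 1 gene was 6.70% and 8.27% in the control libraries. It was 5.12% to 5.64% in the deletion libraries, and the part of this difference in the results was not tested. The labels number the libraries but do not say that they come from separate cultures, while the protocol calls them biological replicates.

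**Figure D1:**
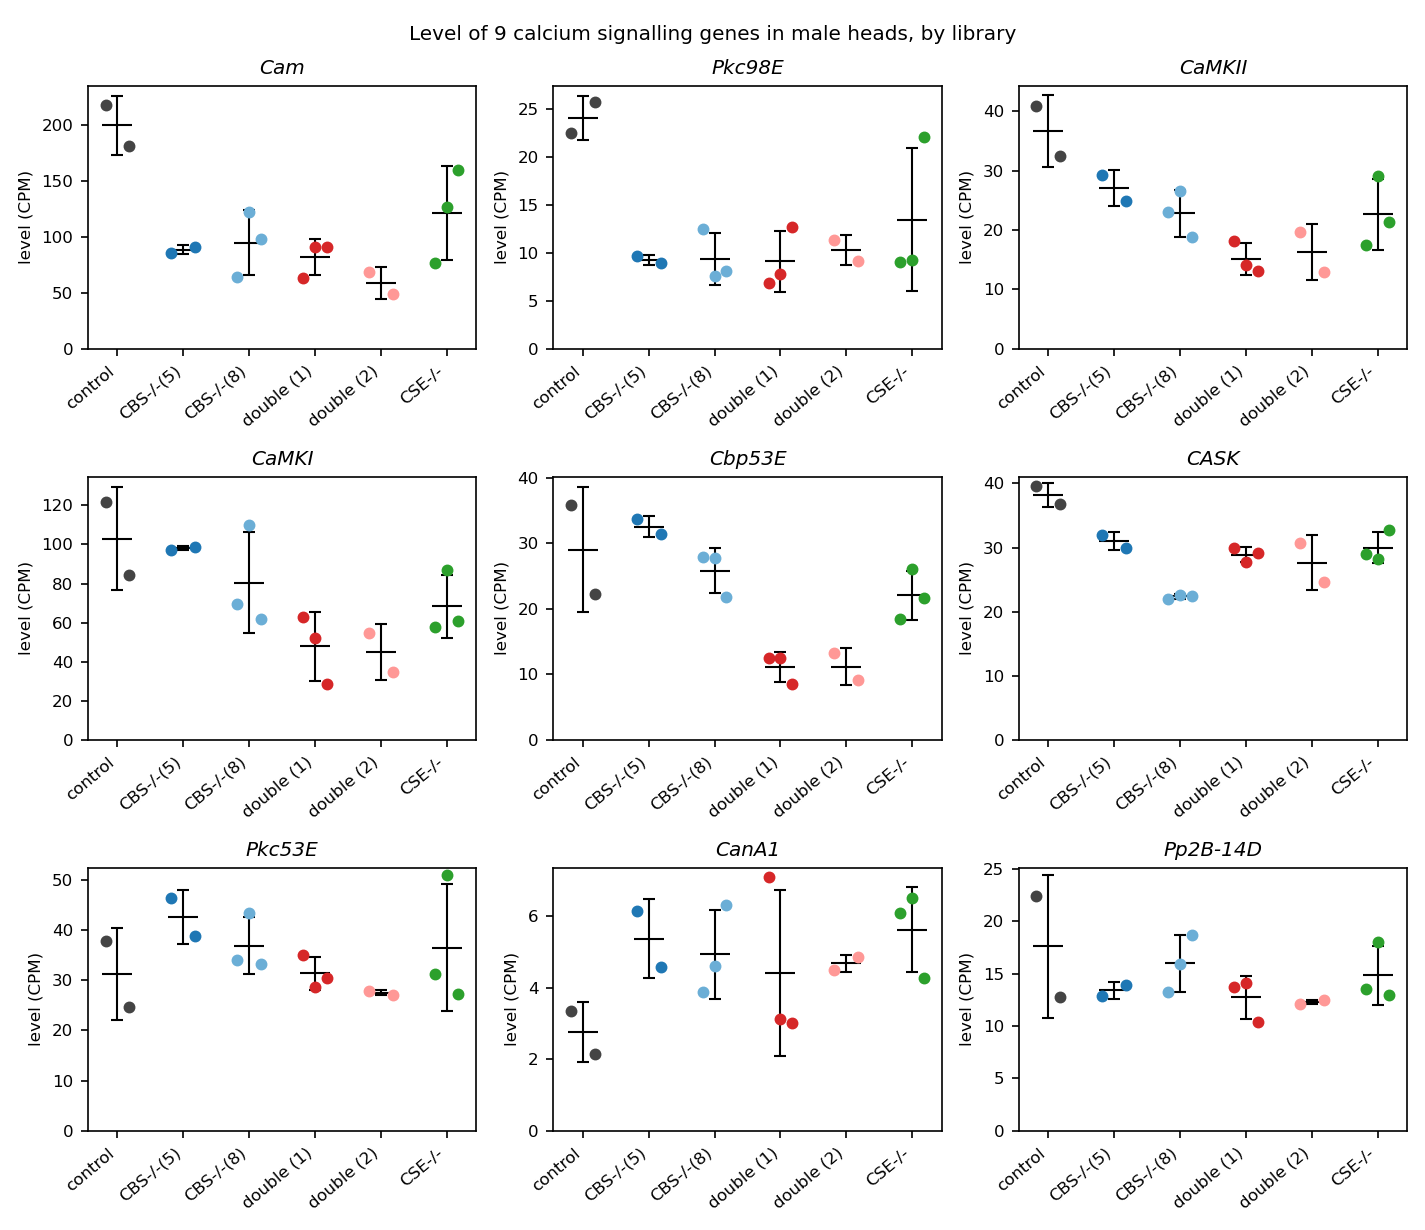
Level of each of the 9 members in every library (points, CPM on a linear axis from 0) by strain, with the mean and SD of the strain as bars. *Cam* and *Pkc98E* stood below the control in all libraries of the deletion strains, with *CSE-/-* included. For *Pkc98E* in *CSE-/-* replicate 4 the gap was narrow, at 22.2 CPM against 22.5 in the lower control library. *Cbp53E* stood apart only in the 5 libraries of the double deletion strains.

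The calcium sensor itself was lower in the strains without CBS. *Cam* (FBgn0000253, chromosome 2R, 12259398 to 12278809 on the plus strand, BDGP6/dm6) is a protein-coding gene with 5812 bp of exon, of which a long 3′ UTR of up to 5015 bp is the larger part. Its level was 218 and 181 CPM in the control, 85.7 and 91.3 in *CBS-/-*(5), 64.1, 122 and 98.0 in *CBS-/-*(8), 63.2, 90.7 and 91.1 in *CBS-/-CSE-/-*(1), and 69.0 and 48.7 in *CBS-/-CSE-/-*(2). The 10 libraries without CBS lay below both control libraries. In *CSE-/-* the libraries had 76.8, 127 and 160 CPM, also under the control, but they were widely spread.

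*Cam* fell in *CBS-/-*(5) by 1.16 on the log2 scale (SE 0.17, edgeR adjusted p = 0.0153), in *CBS-/-CSE-/-*(1) by 1.29 (SE 0.24, edgeR adjusted p = 0.0284) and in *CBS-/-CSE-/-*(2) by 1.78 (SE 0.26, edgeR adjusted p = 0.0279). Its mean in these strains was 44.3%, 40.9% and 29.5% of the control. In *CBS-/-*(8) the log2 fold change was -1.09 (SE 0.32) and did not pass the test (edgeR adjusted p = 0.0713), although it did under DESeq2 (adjusted p = 0.0162). In *CSE-/-* it was -0.72 (SE 0.35, edgeR adjusted p = 0.761). Single libraries decided several of these calls. The edgeR adjusted p in *CBS-/-*(5) became 0.0652 without control replicate 3 and 0.0673 without *CBS-/-*(5) replicate 1. In *CBS-/-*(8) it became 0.0427 without replicate 1 and 0.0163 without replicate 2 of that strain. In *CBS-/-CSE-/-*(1) it became 0.174 without control replicate 1, 0.0905 without control replicate 3 and 0.128 without replicate 2 of that strain, and in *CBS-/-CSE-/-*(2) it became 0.0909 and 0.0687 without control replicates 1 and 3. All these fits kept the sign, with log2 fold changes of *Cam* between -2.06 and -0.86.

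*Pkc98E* had the most calls among the members. It encodes a protein kinase C of the class that responds to diacylglycerol without calcium, and lies on chromosome 3R (FBgn0003093, 29039156 to 29049148, plus strand, 5772 bp of exon). Its level was 22.5 and 25.7 CPM in the control, 9.63 and 8.90 in *CBS-/-*(5), 12.5, 7.58 and 8.13 in *CBS-/-*(8), 6.83, 7.80 and 12.7 in *CBS-/-CSE-/-*(1), and 11.4 and 9.18 in *CBS-/-CSE-/-*(2). The highest library without CBS, at 12.7 CPM, lay well below the lower control library. In *CSE-/-*, 2 libraries at 9.02 and 9.29 CPM were in the same range, while replicate 4 at 22.2 CPM was near the control.

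The kinase *Pkc98E* fell in all 4 strains without CBS, to 38.4%, 39.0%, 37.8% and 42.6% of the control mean. The log2 fold changes were -1.36 in *CBS-/-*(5) (SE 0.19, edgeR adjusted p = 0.0129), -1.39 in *CBS-/-*(8) (SE 0.30, edgeR adjusted p = 0.0187), -1.41 in *CBS-/-CSE-/-*(1) (SE 0.30, edgeR adjusted p = 0.0429) and -1.25 in *CBS-/-CSE-/-*(2) (SE 0.22, edgeR adjusted p = 0.0463). In *CSE-/-* the log2 fold change of *Pkc98E* was -0.85 (SE 0.41, edgeR adjusted p = 0.772), and without its replicate 4 it was -1.41 (edgeR adjusted p = 0.0194). The calls again rested on few libraries. Without control replicate 3 the adjusted p was 0.0817, 0.149, 0.173 and 0.134 in the 4 strains in that order. Without control replicate 1 it was 0.137 and 0.104 in the double deletion strains (1) and (2). It was also lost without replicate 5 of *CBS-/-*(8) (0.0804), without replicate 1 or 2 of *CBS-/-CSE-/-*(1) (0.0849 and 0.208) and without replicate 4 of *CBS-/-CSE-/-*(2) (0.108). The log2 fold change of *Pkc98E* in the strains without CBS stayed between -1.71 and -1.08 when any 1 library was left out.

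**Figure D2:**
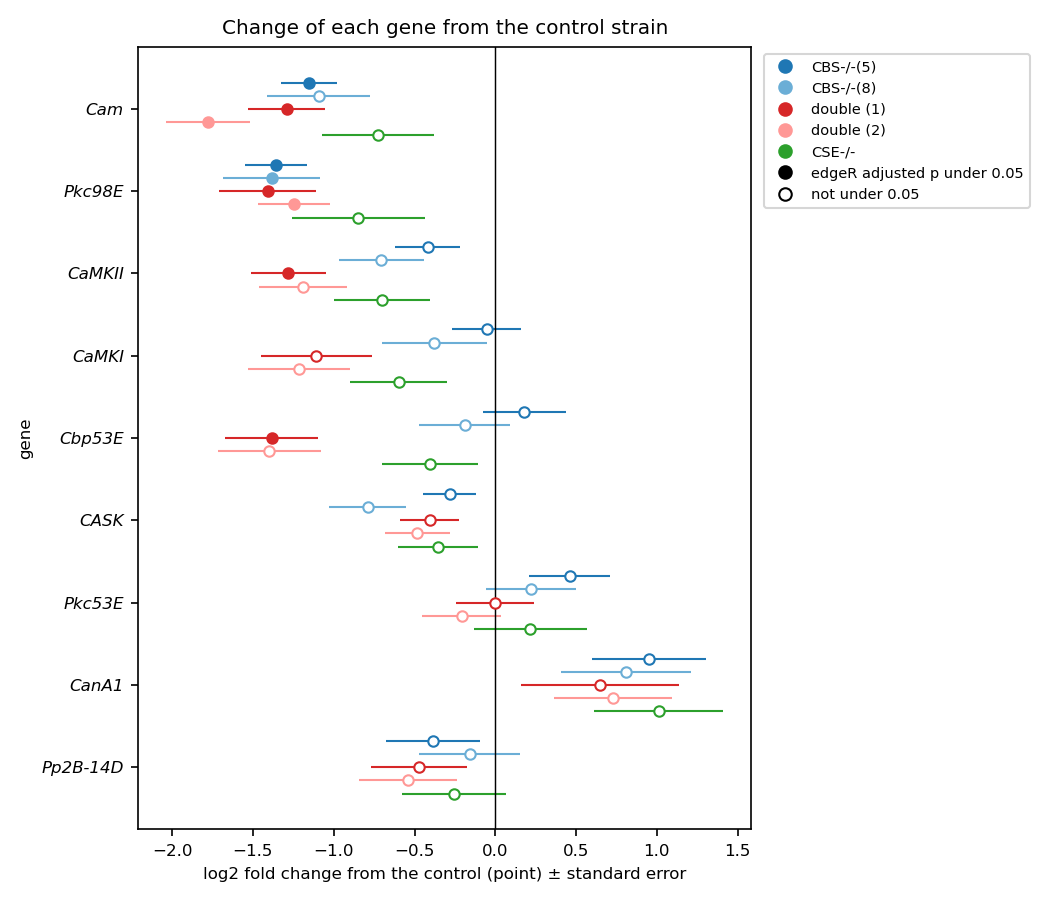
Log2 fold change of each member from the control (point) with its standard error (line) in the 5 deletion strains, where filled points have an edgeR adjusted p under 0.05. *Pkc98E* is filled in the 4 strains without CBS and *Cam* in 3 of them, and *CaMKII* and *Cbp53E* are filled in *CBS-/-CSE-/-*(1) alone.

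The calmodulin-dependent kinases were lowest in the double deletion strains. *CaMKII* (FBgn0264607, chromosome 4, 1035288 to 1053703, minus strand, 4588 bp of exon) had 40.9 and 32.4 CPM in the control, 29.3 and 24.9 in *CBS-/-*(5), 23.0, 26.6 and 18.8 in *CBS-/-*(8), and 17.5, 29.1 and 21.3 in *CSE-/-*. The double deletion strains had 18.2, 14.2 and 13.01 CPM in strain (1) and 19.6 and 12.9 in strain (2). All 13 libraries with a deletion were below both control libraries. *CaMKII* fell in *CBS-/-CSE-/-*(1) by 1.28 on the log2 scale (SE 0.23, edgeR adjusted p = 0.0258). In *CBS-/-CSE-/-*(2) its log2 fold change was -1.19 (SE 0.27) and missed the threshold (edgeR adjusted p = 0.0821), although DESeq2 gave an adjusted p of 0.0113. The strain (2) value was also under the threshold without its replicate 2 (edgeR adjusted p = 0.0153). The log2 fold changes in *CBS-/-*(5), *CBS-/-*(8) and *CSE-/-* were -0.42, -0.71 and -0.70, with edgeR adjusted p of 0.224, 0.157 and 0.656. The call of *CaMKII* in strain (1) was lost without control replicate 1, control replicate 3 or replicate 2 of the strain, at edgeR adjusted p of 0.178, 0.0580 and 0.149.

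*CaMKI* (FBgn0016126, chromosome 4, 445504 to 453947, plus strand, 3382 bp of exon), a single-subunit kinase that calmodulin activates, lies on the same small chromosome. It had 122 and 84.3 CPM in the control, 97.3 and 98.9 in *CBS-/-*(5), 69.7, 110 and 61.6 in *CBS-/-*(8), and 57.6, 87.0 and 60.6 in *CSE-/-*. In the double deletion strains it had 63.0, 52.2 and 28.3 CPM in strain (1) and 54.9 and 34.8 in strain (2). Only the double deletion libraries were all below the control. Even so *CaMKI* passed the test in no strain, with log2 fold changes of -1.11 (SE 0.34, edgeR adjusted p = 0.131) and -1.21 (SE 0.31, edgeR adjusted p = 0.103) in the double deletion strains and between -0.60 and -0.05 in the others. DESeq2 gave *CaMKI* an adjusted p of 0.0403 in strain (1) and 0.00773 in strain (2), and the edgeR adjusted p in strain (2) was 0.0146 without its replicate 2.

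*Cbp53E* encodes a neuronal calcium-binding protein related to vertebrate calbindin and calretinin (FBgn0004580, chromosome 2R, 16973927 to 16996057, plus strand, 2754 bp of exon). Its level was 35.8 and 22.2 CPM in the control, 33.7 and 31.5 in *CBS-/-*(5), 27.9, 27.8 and 21.8 in *CBS-/-*(8), and 18.5, 26.0 and 21.6 in *CSE-/-*. The double deletion libraries had 12.5, 12.4 and 8.52 CPM in strain (1) and 13.2 and 9.18 in strain (2), below every library of the other 4 strains. *Cbp53E* fell in *CBS-/-CSE-/-*(1) by 1.39 on the log2 scale (SE 0.29, edgeR adjusted p = 0.0402), to 38.3% of the control mean. In *CBS-/-CSE-/-*(2), at 38.5% of the control mean, its log2 fold change of -1.40 (SE 0.32) missed the threshold in edgeR (adjusted p = 0.0802), but not in DESeq2 (adjusted p = 0.00662) or in edgeR without replicate 2 of the strain (adjusted p = 0.0143). The difference in its control libraries entered these tests, since without control replicate 1 the log2 fold change of *Cbp53E* in strain (1) was -0.999 (edgeR adjusted p = 0.258). That call was also lost without replicate 1 or 2 of strain (1) (edgeR adjusted p of 0.0717 and 0.155). In the single deletion strains the log2 fold change of *Cbp53E* was 0.18, -0.19 and -0.40, with edgeR adjusted p of 0.667, 0.730 and 0.938.

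The 4 remaining members passed the test against the control in no strain. *CASK* (FBgn0013759, chromosome 3R, 21783400 to 21822674, minus strand, 9545 bp of exon), a synaptic scaffold protein that binds *CaMKII*, had 39.5 and 36.9 CPM in the control and 21.9 to 32.8 CPM in the 13 deletion libraries. The groups did not overlap, and the log2 fold changes lay between -0.79 and -0.28. The lowest were the 3 libraries of *CBS-/-*(8) at 21.9, 22.7 and 22.5 CPM, with a log2 fold change of -0.79 (SE 0.24, edgeR adjusted p = 0.0797). For *CASK* in this strain the edgeR adjusted p became 0.0353 without its replicate 1 and 0.00903 in 1 fit of all 15 libraries. Of the exons of *CASK*, 27.96% overlap those of the noncoding gene *lncRNA:CRG* on the same strand, so that reads there could be split or set aside as ambiguous. *Pkc53E* (FBgn0003091, chromosome 2R, 16924655 to 16945126, plus strand, 5739 bp of exon), a conventional protein kinase C with a calcium-binding domain, had 24.7 to 37.8 CPM in the control and 27.1 to 50.9 CPM elsewhere. Its log2 fold changes ran from -0.21 to 0.46, with edgeR adjusted p of 0.264 and above.

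The calcineurin catalytic genes *Pp2B-14D* and *CanA1* went different ways, though neither was called. *Pp2B-14D* (FBgn0011826, chromosome X, 16554627 to 16560016, minus strand, 5390 bp of exon) had 22.4 and 12.8 CPM in the control and 10.4 to 18.7 CPM in the deletion strains. Its control libraries differed from each other more than the strains did, and its log2 fold changes of -0.54 to -0.16 had edgeR adjusted p of 0.357 and above. *CanA1* (FBgn0010015, chromosome 3R, 31039374 to 31046821, plus strand, 3064 bp of exon) was the only member with a mean over the control in all 5 strains, at 160% to 204% of it. It had 3.36 and 2.16 CPM in the control, 6.15 and 4.59 in *CBS-/-*(5), 3.88, 4.62 and 6.31 in *CBS-/-*(8), 7.09, 3.13 and 3.02 in *CBS-/-CSE-/-*(1), 4.51 and 4.85 in *CBS-/-CSE-/-*(2), and 6.09, 6.51 and 4.28 in *CSE-/-*. Of its 13 deletion libraries, 11 were above both control libraries. The log2 fold changes of *CanA1* lay between 0.65 and 1.012 with standard errors of up to 0.49, and the edgeR adjusted p was 0.139 at the lowest.

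The double deletion was then compared directly with the loss of CBS alone, 5 libraries against 5, to ask what the second deletion added. Here and in the comparisons with *CSE-/-* below, the strains of a genotype were taken as 1 group. Libraries of 1 strain thus counted as replicates of the genotype, and differences between strains were not modelled. The SE and adjusted p may therefore be too small for the genotype. *Cbp53E*, *CaMKI*, *CaMKII* and *Pkc53E* fell and *Cam* and *Pkc98E* did not pass the test. The 4 members called lower of 9 stand beside 14.4% of all genes called lower and 13.3% called higher. The double deletion libraries of *Cbp53E* ended at 13.2 CPM and those of the *CBS-/-* strains began at 21.8 CPM, with a log2 difference of -1.36 (SE 0.17, edgeR adjusted p = 0.000973). This call was kept in 8 of 8 other settings and in 10 of 10 fits that left out 1 library, with log2 differences of *Cbp53E* from -1.44 to -1.23 over all of them. For *CaMKI* the difference was -0.91 (SE 0.24, edgeR adjusted p = 0.0292) and 1 pair of values met at the border, the highest double deletion library having 63.0 CPM and the lowest *CBS-/-* library 61.6. For *CaMKII* it was -0.66 (SE 0.16, edgeR adjusted p = 0.0264), with the highest double deletion library at 19.6 CPM and the lowest *CBS-/-* library at 18.8.

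The second group of calls was less firm. *Pkc53E* differed by -0.40 (SE 0.13, edgeR adjusted p = 0.0401), and its double deletion libraries reached 35.0 CPM where the lowest *CBS-/-* library had 33.3. The call of *Pkc53E* was kept in 2 of 10 fits without 1 library and in 3 of 8 other settings. It was lost in particular without replicate 2 or 3 of *CBS-/-CSE-/-*(1) (edgeR adjusted p of 0.0729 and 0.0763), replicate 2 or 4 of *CBS-/-CSE-/-*(2) (0.0710 and 0.0911), replicate 1 or 3 of *CBS-/-*(5) (0.0888 and 0.0761) and replicate 2 or 5 of *CBS-/-*(8) (0.0980 and 0.0620). The calls of *CaMKI* and *CaMKII* were each kept in 4 of 10 such fits. *CaMKI* missed the threshold without replicate 2 or 3 of *CBS-/-CSE-/-*(1) (0.0524 and 0.0603), replicate 4 of *CBS-/-CSE-/-*(2) (0.0691), replicate 1 or 3 of *CBS-/-*(5) (0.0520 and 0.0607) and replicate 2 of *CBS-/-*(8) (0.0753). *CaMKII* missed it without the same libraries, at edgeR adjusted p of 0.0545, 0.0603, 0.0663, 0.0519, 0.0565 and 0.0694 in that order.

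*Cam* and *Pkc98E*, the members that were lower in the *CBS-/-* strains, differed between the double deletion and *CBS-/-* by -0.35 (SE 0.21, edgeR adjusted p = 0.197) and 0.03 (SE 0.20, edgeR adjusted p = 0.903). For *Pkc98E* the means were 9.58 ± 2.45 CPM in the double deletion and 9.36 ± 1.94 CPM in *CBS-/-* (SD, n = 5 libraries each). They differed by less than either SD. *Pp2B-14D*, *CanA1* and *CASK* had log2 differences of -0.25, -0.19 and 0.13, none of which passed the test.

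**Figure D3:**
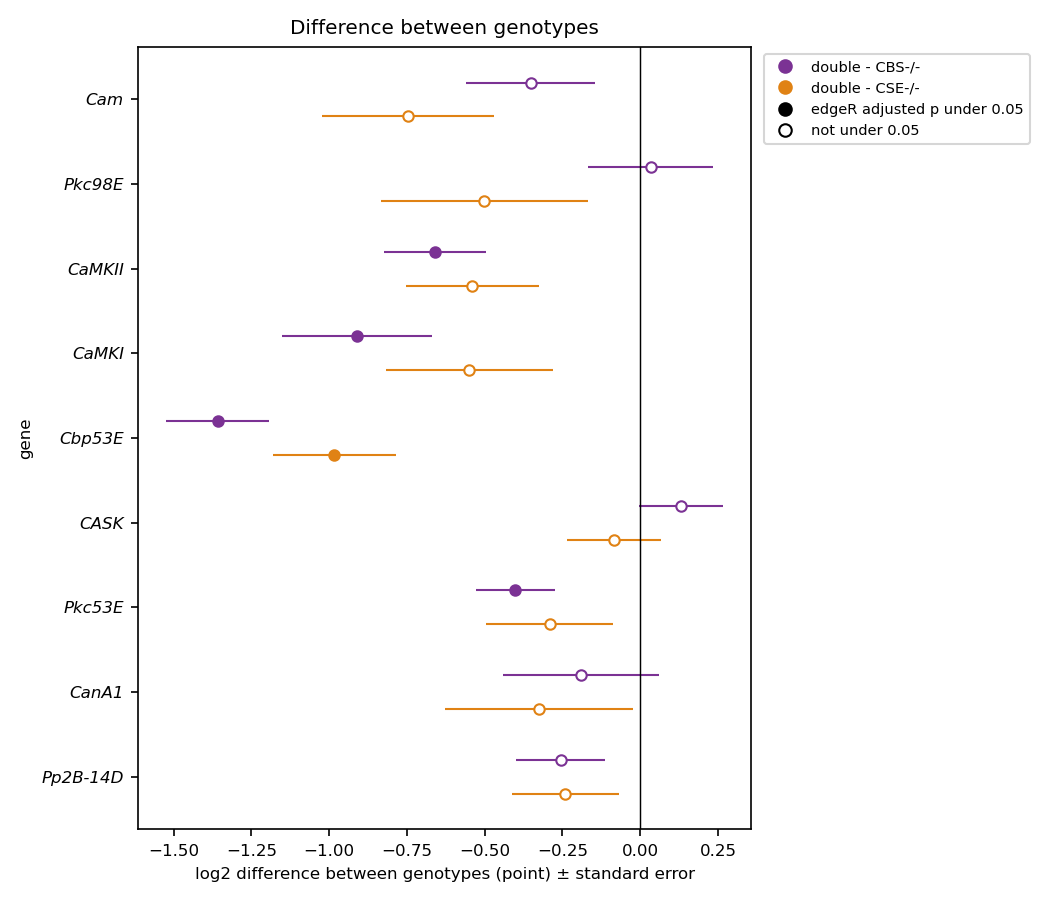
Log2 difference of each member between the double deletion strains and the *CBS-/-* strains (5 against 5 libraries) and between the double deletion strains and *CSE-/-* (5 against 3), with standard errors as lines and filled points for an edgeR adjusted p under 0.05. *Cbp53E* lies farthest to the left in both, at -1.36 and -0.98.

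Against *CSE-/-*, 1 member of 9 was called lower in the double deletion strains, where 0.708% of all genes were lower and 1.02% higher. It was *Cbp53E*, with 8.52 to 13.2 CPM against 18.5 to 26.0 and a log2 difference of -0.98 (SE 0.20, edgeR adjusted p = 0.0368). The libraries did not overlap, yet the call was kept in only 1 of 8 fits without 1 library, namely that without replicate 2 of *CBS-/-CSE-/-*(2). The adjusted p of *Cbp53E* was 0.0543, 0.0656 and 0.0625 without replicates 1, 2 and 3 of *CBS-/-CSE-/-*(1), 0.0837 without replicate 4 of *CBS-/-CSE-/-*(2), and 0.0573, 0.143 and 0.0808 without replicates 1, 3 and 4 of *CSE-/-*. All 9 members had a log2 difference below 0 in this comparison, with a median of -0.50 against -0.04 over all genes, and the next were *Cam* at -0.75 (edgeR adjusted p = 0.193), *CaMKI* at -0.55 (0.287) and *CaMKII* at -0.54 (0.217). Between the *CBS-/-* strains and *CSE-/-*, 0 members were called by edgeR, 0 had an unadjusted p under 0.05, and 0.904% of all genes were called lower and 0.617% higher. The effects of the CBS deletion on *Pkc98E* and *Cam* were therefore not shown to differ from those of the CSE deletion, with log2 differences of -0.55 (SE 0.31, edgeR adjusted p = 0.606) and -0.41 (SE 0.28, edgeR adjusted p = 0.677).

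The pairs of strains with 1 genotype gave 0 called members. Between *CBS-/-*(8) and *CBS-/-*(5), where 0.711% of all genes were called lower and 3.15% higher, 1 member, *CASK*, had an unadjusted p under 0.05, with a log2 difference of -0.46 (SE 0.19, edgeR adjusted p = 0.437). Between *CBS-/-CSE-/-*(2) and *CBS-/-CSE-/-*(1), where 0.135% of all genes were called lower and 0.218% higher, 0 had, and the farthest was *Cam* at -0.48 (SE 0.26, edgeR adjusted p of 1.00).

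Values of neuron markers moved with the difference between the double deletion and *CBS-/-*. The summed level of 7 neuron markers was 124 to 198 CPM in the 5 double deletion libraries, 224 to 319 CPM in the 5 *CBS-/-* libraries, 175 to 282 CPM in *CSE-/-* and 229 and 326 CPM in the control, and none of the 7 was at 0. Of these markers, 4 of 7 were called lower in the double deletion strains than in *CBS-/-*, with a median log2 difference of -0.67. Against the control, 2 of 7 neuron markers were called lower in each of the 4 strains without CBS and 0 in *CSE-/-*. The 7 include *elav* and *Syn*, which the study had itself reported from these libraries as lower in strains with the CBS deletion. The sum of the markers is thus not independent of the study's results. On the log2 scale the 7 had a median of -0.33 in *CBS-/-*(5), of -0.73 in *CBS-/-*(8), of -1.10 in *CBS-/-CSE-/-*(1), -1.22 in *CBS-/-CSE-/-*(2) and -0.46 in *CSE-/-*, and 4, 6, 7, 7 and 7 of the 7 were below 0. Markers of photoreceptors went the other way. Between the double deletion and *CBS-/-* their median log2 difference was 0.22, with 1 of 7 below 0. For glia markers it was -0.39, with 6 of 7 below 0. Against the control the photoreceptor median was 0.51 and 0.44 in the double deletion strains (1) and (2), with 0 of 7 below 0. It was 0.23, 0.48 and 0.32 in *CBS-/-*(5), *CBS-/-*(8) and *CSE-/-*. The part of neuron content in the results for the members was not tested.

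The members were also expressed as a share of this sum, an index chosen after the values were seen and given with no test. *CaMKII* amounted to 9.70% ± 0.61 of the neuron markers in the double deletion strains and 8.61% ± 1.57 in the *CBS-/-* strains (SD, n = 5 each), *CaMKI* to 28.6% ± 4.97 and 30.3% ± 5.13, and *Cbp53E* to 6.96% ± 0.76 and 10.1% ± 2.00. The ranges of the 2 genotypes overlapped for each of these genes, for *Cbp53E* from 7.64% to 8.00%. In the control *CaMKII* ranged from 12.6% to 14.2%, *CaMKI* from 36.9% to 37.4% and *Cbp53E* from 9.73% to 11.0%. Libraries without CBS reached at most 10.4% for *CaMKII* and 34.4% for *CaMKI*, below the control. *CSE-/-* was below it as well, at 9.95% to 10.4% for *CaMKII* and 29.6% to 32.8% for *CaMKI*. For *Cbp53E* the double deletion strains, at 6.22% to 8.00%, lay below the control, whereas the *CBS-/-* strains, at 7.64% to 12.5%, overlapped it. *Pkc98E* ranged from 6.91% to 11.3% in the control, from 2.38% to 5.60% in the *CBS-/-* strains and from 3.45% to 9.30% in the double deletion strains. *Cam* ranged from 67.0% to 79.2%, from 28.6% to 38.2% and from 31.9% to 66.5% in the same groups. The *CBS-/-* strains thus did not overlap the control for either gene, whereas the double deletion strains overlapped it for *Pkc98E* and nearly reached it for *Cam*. *CSE-/-* overlapped the control for *Pkc98E* (3.30% to 10.8%), *Cam* (43.8% to 78.1%) and *Cbp53E* (9.24% to 10.5%).

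**Figure D4:**
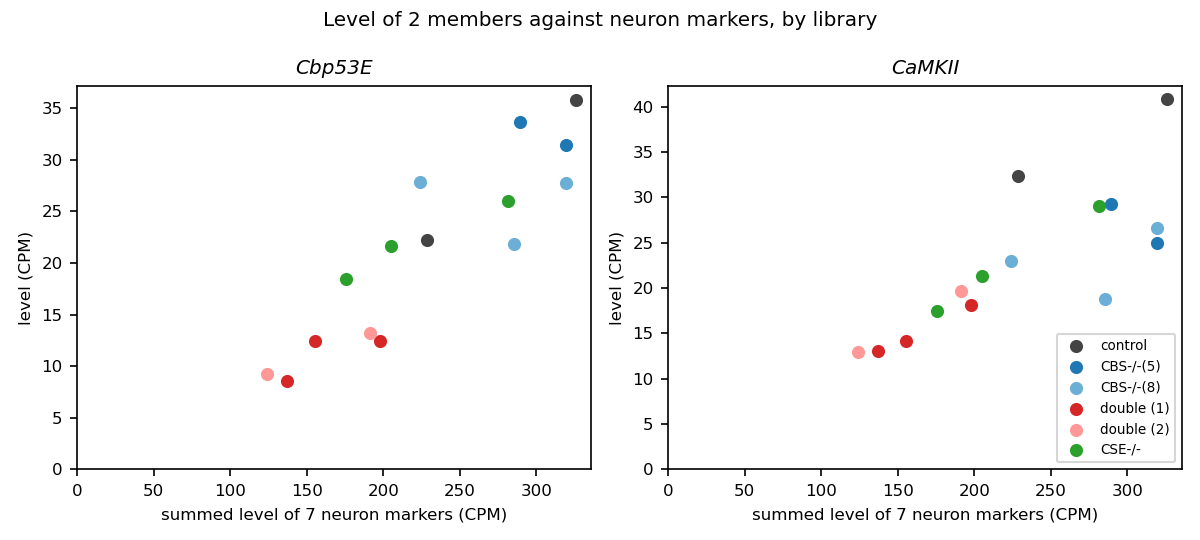
Level of *Cbp53E* and *CaMKII* in each library (CPM) plotted over the summed level of 7 neuron markers in the same library (CPM), coloured by strain, with both axes starting at 0. The 5 double deletion libraries lie at 124 to 198 CPM of neuron markers with *Cbp53E* at 8.52 to 13.2 CPM, and the *CSE-/-* libraries at 175 to 282 CPM with *Cbp53E* at 18.5 to 26.0 CPM.

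Long genes moved in the same direction. Among the fifth of genes with the longest exons, from 4194 bp on, the median log2 difference between the double deletion and *CBS-/-* was -0.46 and 29.2% were called lower. When a trend with exon length was removed, *Cbp53E* and *CaMKI* kept their calls, *CaMKII* was at -0.30 (edgeR adjusted p = 0.130), *Pkc53E* turned to 0.04, and *CASK* was called higher at 0.61 (edgeR adjusted p = 0.0271). *Pkc98E* went from 0.03 to 0.48 and was not called (edgeR adjusted p = 0.220). Exons of *Cbp53E* and *CaMKI* total 2754 and 3382 bp and are thus shorter than this limit, whereas those of *Cam*, *CaMKII*, *CASK*, *Pkc53E*, *Pkc98E* and *Pp2B-14D* are longer. Against the control, with the length trend removed, *Cam* and *Pkc98E* in *CBS-/-CSE-/-*(1) were at -1.04 and -1.17 and were no longer called (edgeR adjusted p of 0.105 and 0.164), nor was *Pkc98E* in *CBS-/-CSE-/-*(2) at -1.10 (0.0638). The same fits called *Cam* in *CBS-/-*(8) at -1.31 (edgeR adjusted p = 0.0164), *CaMKII* in *CBS-/-*(5) at -0.72 (0.0459), in *CBS-/-*(8) at -0.93 (0.0408) and in *CBS-/-CSE-/-*(2) at -1.11 (0.0413), and *Cbp53E* in *CBS-/-CSE-/-*(2) at -1.40 (0.0494).

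Across the 15 libraries the members fell into patterns that can be described by the correlation of their log2 CPM, which all share strain and depth. *CaMKII*, *CaMKI* and *Cbp53E* varied together, with Pearson r of 0.915 for *CaMKII* and *CaMKI*, 0.917 for *CaMKI* and *Cbp53E*, and 0.877 for *CaMKII* and *Cbp53E*. *Pkc98E* was less like them, at 0.147 with *CaMKI* and 0.237 with *Cbp53E*, while *Cam* had r of 0.696 with *CaMKII* and 0.680 with *Pkc98E*. Of 8145 genes searched, those most like *Cam* were *larp*, which encodes an RNA-binding protein (r = 0.971), and *Bsg* (r = 0.969), and those most like *Pkc98E* were the potassium channel gene *Sh* (r = 0.921) and *kud* (r = 0.918).

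Other genes of calcium signalling were taken from a list by role. The list had 40 genes, 38 were found and 37 were tested in each comparison. Against the control 4 of 37 were called lower in each of the 4 strains without CBS and 0 in *CSE-/-*, and 0 were called higher in any strain. The share of all genes called lower in these 4 strains was 7.74%, 4.67%, 3.03% and 2.36%. For the 37 genes together the median change on the log2 scale was 0.18 and -0.13 in the *CBS-/-* strains (5) and (8), -0.46 and -0.41 in the double deletion strains (1) and (2), and -0.07 in *CSE-/-*, and 12, 20, 28, 30 and 22 of the 37 were below 0 in these strains.

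Of these genes *SK*, *eag* and *Frq1* were called in 3 or more strains, and all of them were also in the study's own lists from these libraries. *SK*, a potassium channel that calcium opens through calmodulin, had 14.2 ± 0.16 CPM in the control (SD, n = 2) and means of 2.16 to 3.32 CPM in the strains without CBS. Its log2 fold changes there ran from -2.72 to -2.08, with edgeR adjusted p from 0.00198 to 0.0123. *eag*, a voltage-gated potassium channel that binds calmodulin, had 7.28 ± 0.98 CPM in the control and 1.39 to 2.26 CPM in these strains, with log2 fold changes from -2.39 to -1.66 and edgeR adjusted p from 0.0174 to 0.0280. *Frq1*, one of a pair of near-identical frequenin genes that act as calcium sensors at the synapse, fell in *CBS-/-*(5) by 1.88, in *CBS-/-*(8) by 1.97 and in *CBS-/-CSE-/-*(2) by 2.34 on the log2 scale (edgeR adjusted p of 0.0361, 0.0111 and 0.0463), and had -1.78 in *CBS-/-CSE-/-*(1) (0.0645). Reads that *Frq1* shares with *Frq2* could be set aside or misplaced. In *CSE-/-*, the means of *SK*, *eag* and *Frq1* were 6.85, 3.66 and 5.02 CPM and the edgeR adjusted p was 0.533, 0.585 and 0.900.

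**Figure D5:**
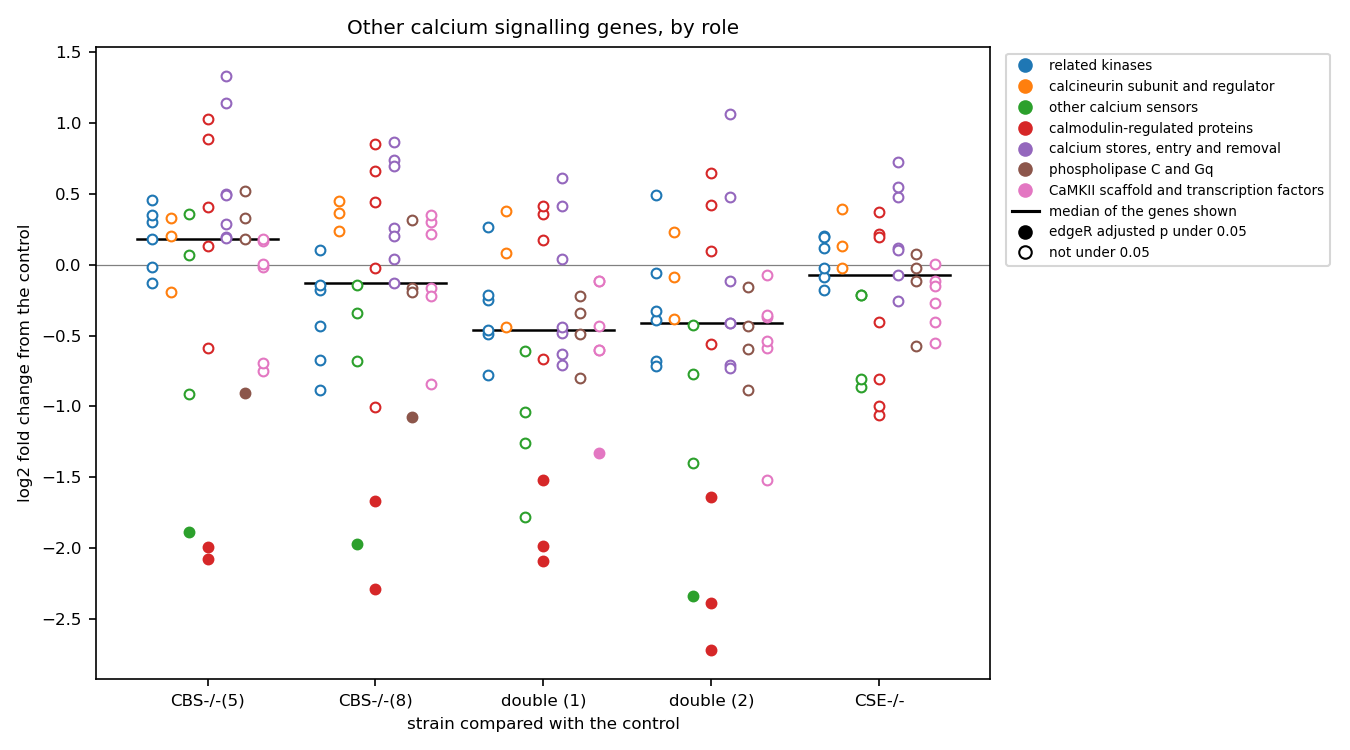
Log2 fold change from the control of the 37 other calcium signalling genes in each deletion strain (points, coloured by role), with the median of the genes as a black line and filled points for an edgeR adjusted p under 0.05. The median lies at 0.18 in *CBS-/-*(5) and at -0.46 and -0.41 in the double deletion strains, and the filled points are all below 0.

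Regulators of calcineurin showed no call against the control. *CanB* and *CanB2*, which encode its regulatory subunit, and *sra*, its inhibitor, had log2 fold changes between -0.44 and 0.45 with edgeR adjusted p of 0.234 and above. Between the double deletion and *CBS-/-*, 12 of the 37 genes were called lower and 0 higher. This stands beside 14.4% of all genes and 29.2% of the fifth of genes with the longest exons called lower. The 12 included *CanB2*, at -0.59 (SE 0.16, edgeR adjusted p = 0.0317). The handling of calcium in stores, its entry and its removal took 5 of the 12 calls from 7 genes tested, which were *PMCA*, the calcium pump of the plasma membrane, at -0.86 (SE 0.29, edgeR adjusted p = 0.0460), the exchanger *Calx* at -0.81 (SE 0.25, 0.0366), the pump of the endoplasmic reticulum *SERCA* at -0.75 (SE 0.24, 0.0412), the entry channel *Orai* at -0.67 (SE 0.16, 0.0250) and its activator *Stim* at -0.63 (SE 0.17, 0.0303). These 5 were picked out after their values were seen, and their values under other settings are not given here. The same 7 genes had a median log2 fold change of 0.49 and 0.26 from the control in the *CBS-/-* strains (5) and (8) and of -0.44 and -0.41 in the double deletion strains, with 0 called in any of them.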

How the data were processed

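RNA of male heads was sequenced by the authors from a directional poly(A) library kit, trimmed with Trimmomatic and aligned with STAR to dm6 in the PPLine pipeline, and the deposited values are raw read counts per gene, without normalization. featureCounts and SAMtools are named in the submitters' processing notes. Versions, strand setting and annotation release are not given in the sources used here. Reads not unique to 1 gene (6.70 and 8.27% in the control libraries, 5.12 to 5.64% in the deletion libraries) and other unassigned reads were left out of totals.

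Members and lists were chosen with earlier results of these data known. Coordinates and exon lengths were from the Ensembl annotation of BDGP6.54. Comparisons used edgeR 4.0.16 (R 4.3.3), fitted separately each time on genes passing filterByExpr, scaled by TMM and tested by quasi-likelihood (legacy form), with the SE taken as the size of the log2 change over the root of F. Alternatives were RLE, DESeq2 1.42.0, no filter, a minimum of 10 counts per library, the 15 libraries fitted together, the newer quasi-likelihood form, a replicate block, length offsets (lowess span of 0.3) and leaving out each library. The tests were checked on simulated data. Other calcium genes were named if called in 1 direction in at least 3 strains, and correlation used genes with at least 10 counts in every library. A floor of 3 counts is 0.142 to 0.438 CPM.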

Additional observations from a re-analysis of the deposited data

How the results depend on the processing

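Log2 changes of the members kept their direction and side of the threshold in 449 of 495 values from other settings and in 292 of 369 with 1 library left out. The count of members called lower than the control moved in *CBS-/-*(5) from 2 to 1 without the filter and to 0 in 1 fit of all 15 libraries, in *CBS-/-*(8) from 1 to 2 under DESeq2, without the filter or in the fit of all 15, and to 3 with length offsets, in *CBS-/-CSE-/-*(1) from 4 to 2 with length offsets, and in *CBS-/-CSE-/-*(2) from 2 to 5 under DESeq2 or without the filter and to 1 with the newer quasi-likelihood form. In the double deletion against *CBS-/-*, length offsets gave 2 lower and 1 higher. Smaller moves of a count are not all listed here, such as that from 2 to 3 in *CBS-/-*(5) with length offsets. The members behind a count could also change. In the fit of all 15, *CBS-/-CSE-/-*(2) lost *Pkc98E* (edgeR adjusted p = 0.112) and gained *Cbp53E* (0.0140) and *CaMKII* (0.0321). With 1 library left out, the counts ran from 0 to 2, 0 to 3, 0 to 4, 0 to 5 and 0 to 1 in the 5 strains in the order above with *CSE-/-* last, from 1 to 4 for the double deletion against *CBS-/-* and from 0 to 1 against *CSE-/-*. The cause was not tested. The 495 and 369 values cover the 5 strains against the control and the double deletion against *CBS-/-* and *CSE-/-*. Among the 495 are those with the numbers crossed, the alternative described below that was chosen after seeing the data.

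Directions turned only for values that had not passed the test or with length offsets. *Pkc53E* in *CBS-/-CSE-/-*(1), at -0.003, was 0.00129 under RLE, 0.000292 under DESeq2, 0.016 without the filter, 0.23 with length offsets and 0.000357 in the fit of all 15. Length offsets turned *Cam*, *Pkc53E* and *Pp2B-14D* to 0.13, 0.038 and 0.16 in the double deletion against *CBS-/-*, and *CASK* and *Pp2B-14D* to 0.19 and 0.0012 against *CSE-/-*. With 1 library left out, the ranges across 0 were, in *CBS-/-*(5), -0.13 to 0.55 for *Cbp53E*, -0.73 to 0.064 for *Pp2B-14D* and -0.30 to 0.22 for *CaMKI*, in *CBS-/-*(8), -0.016 to 0.55 for *Pkc53E*, -0.46 to 0.19 for *Cbp53E* and -0.47 to 0.30 for *Pp2B-14D*, in the double deletion strains (1) and (2), -0.27 to 0.34 and -0.48 to 0.14 for *Pkc53E*, in *CSE-/-*, -0.077 to 0.56 for *Pkc53E* and -0.58 to 0.21 for *Pp2B-14D*, in the double deletion against *CBS-/-*, -0.082 to 0.16 for *Pkc98E*, and against *CSE-/-*, -0.13 to 0.0074 for *CASK*, -0.73 to 0.082 for *Pkc98E* and -0.44 to 0.015 for *Pkc53E*.

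Replicate numbers shared by strains were not taken to pair the libraries, as the deviations of same-numbered libraries correlated from -0.54 to 0.36. With the number as a replicate block, members called lower were 1 in the double deletion against *CBS-/-* and 0 against *CSE-/-*, where all genes called lower went from 1325 to 21 and from 68 to 14, and *Pkc53E* in *CBS-/-CSE-/-*(1) was at 0.082. Against the control, the block raised the members called lower in *CBS-/-CSE-/-*(1) from 4 to 5, the added one being *CaMKI* at -1.26 (edgeR adjusted p = 0.00216), and left 2 in *CBS-/-*(5) and 0 in *CSE-/-*. All genes called lower and higher there went from 285 and 108 to 764 and 426 in *CBS-/-CSE-/-*(1), whose 2 shared numbers correlated at 0.25 and 0.36, and from 53 and 20 to 177 and 32 in *CSE-/-*. *CBS-/-*(5) against the control had 977 genes lower and 495 higher with the block and 1289 and 921 with the numbers crossed, an alternative chosen after seeing the data. No paired analysis was possible for *CBS-/-*(8) and *CBS-/-CSE-/-*(2) against the control, or between strains of 1 genotype, because they share fewer than 2 numbers. Where leaving out a library left 1 in a group, that library was assumed to vary like the others.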
